A study of Mus musculus with 6 samples.

Results

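Translation initiation factors are the proteins that bring the initiator transfer RNA, the small ribosomal subunit and the capped end of a messenger RNA together. Their transcripts were measured in 3 SETDB2-up and 3 NC-up libraries of mouse trigeminal ganglion, the sensory ganglion of the head. The members are the protein-coding genes of the deposited table whose symbols begin with Eif and a digit of 1 to 6, apart from the Y-linked Eif2s3y. They number 52 of 16415 listed genes. All 52 passed the filter on low values, and each had at least 68 recovered reads in every library. By name they also include the kinases that phosphorylate eIF2 and the proteins that bind eIF4E, which regulate initiation rather than carry it out.

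The libraries were made from polyadenylated RNA of ganglia with a wild-type genotype, and they differ by the treatment label, SETDB2-up or NC-up. The labels spell out neither name, give no route, vector, age or sex, and do not say whether the libraries of a group came from separate animals. The tests therefore measure the spread between libraries, which may be technical. The series title places SETDB2 with KLF4, IDE and CGRP in sensory neurons in migraine, so the question asked here is how initiation factor transcripts differ between the 2 treatments.

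In outline, initiation starts when eIF2 binds GTP and the initiator transfer RNA and joins eIF1, eIF1A, eIF3 and eIF5 on the small subunit. The complex eIF2B recharges eIF2 with GTP, and stress-activated kinases stop this by phosphorylating the alpha subunit of eIF2. The cap is bound by eIF4E, which together with the scaffold eIF4G and the helicase eIF4A opens the messenger RNA for scanning. Then eIF5B joins the large subunit, and eIF5A helps the ribosome at difficult peptide bonds. In sensory neurons the cap-binding step is known as a point where nociceptor excitability is set, through the kinases that act on eIF4E.

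Several of the genes come as paralogue pairs, and the results turn on whether reads can tell these apart. The coding sequences of Eif4a2 and Eif4a1 were identical at 78.2% of 1218 aligned bases, with a longest shared run of 20 bases. Those of Eif5a2 and Eif5a were identical at 73.2% of 459 aligned bases, with a longest shared run of 14 bases. The coding stretches of 60 bases where each pair is most alike follow, from GENCODE M21 transcripts (GRCm38), with the bases that differ in capitals.
Eif4a2, coding bases 538 to 597: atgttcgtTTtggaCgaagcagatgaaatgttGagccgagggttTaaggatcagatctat
Eif4a1, coding bases 532 to 591: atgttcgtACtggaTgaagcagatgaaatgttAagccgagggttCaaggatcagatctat
Eif5a2, coding bases 94 to 153: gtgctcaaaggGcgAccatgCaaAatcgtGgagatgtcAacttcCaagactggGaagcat
Eif5a, coding bases 94 to 153: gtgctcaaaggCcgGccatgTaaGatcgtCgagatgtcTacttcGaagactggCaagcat
Even in these windows the first pair differed at 5 bases and the second at 8. Eif2s3x and its Y-linked copy were closer, at 86.3% of 1416 aligned bases with a longest shared run of 34 bases. So were Eif1ax and Eif1a, which both rose, at 85.6% of 432 aligned bases with a longest shared run of 28 bases. The sources used here do not say how reads that align to more than 1 place were counted.

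Recovered reads per library summed to between 19334997 and 23501386. Setdb2 itself had 113, 97.6 and 104 normalised reads in SETDB2-up libraries 1 to 3, against 69.9, 58.4 and 71.5 in NC-up libraries 1 to 3 (log2 difference 0.65 ± 0.19 SE, limma's adjusted p = 0.0253). That call was lost in 7 of 17 alternatives, among them the GC correction (0.48 on the log2 scale, limma's adjusted p = 0.164), with an adjusted p of up to 0.423. Of 10 sensory neuron markers 1 rose and 2 fell, with summed levels of 129444 to 142078 in SETDB2-up libraries and 133239 to 138760 in NC-up libraries. Of 14 liver markers 10 rose, with sums of 3243, 7760 and 95.5 in SETDB2-up libraries 1, 2 and 3 and of 49.8 to 60.8 in NC-up libraries. Of 5 Schwann cell markers 3 fell, with sums of 256221 to 290825 in SETDB2-up libraries and 290217 to 303542 in NC-up libraries. No satellite glia marker passed, with sums of 91345 to 109911 in SETDB2-up libraries and 104300 to 107765 in NC-up libraries. No macrophage marker passed either, with sums of 1310 to 1535 in SETDB2-up libraries and 1394 to 1895 in NC-up libraries. Of 5 fibroblast markers 2 fell, with sums of 18764 to 21674 in SETDB2-up libraries and 21305 to 25125 in NC-up libraries, and of 5 red cell markers 1 fell (5249 to 15488 in SETDB2-up and 7806 to 15313 in NC-up). Skeletal muscle (3 of 4 fell; 34.2 to 93.7 in SETDB2-up and 97.5 to 244 in NC-up) and keratinocyte markers (4 of 5 fell; 114 to 127 in SETDB2-up and 173 to 518 in NC-up) were low throughout, and Krt14, Krt5 and 10 liver markers were at 0 in at least 1 library. Whether the share of these cells plays a part in the results on initiation factors was not tested, and in bulk samples fewer cells of a type and less RNA per cell cannot be told apart.

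Of the 52 genes, 12 rose and 3 fell in SETDB2-up libraries (limma on the whole table, adjusted p under 0.05), and 37 did not pass. Among all 16387 tested genes, 7.71% rose and 8.71% fell, against 23.1% and 5.77% of the members. The members were also more abundant, with a median level of 1370 normalised reads over all libraries, against 420 for all tested genes. Small changes pass more easily at higher levels, and the shares were not matched for level. The rises lay between 1.19-fold and 1.36-fold and the falls between 0.770-fold and 0.831-fold. The median log2 difference of the 52 genes was 0.00, as was that of all tested genes. The summed normalised reads of the 52 genes were 132170, 132638 and 136464 in SETDB2-up libraries, against 125442, 125194 and 130499 in NC-up libraries, a ratio of means of 1.05. For 15 genes every SETDB2-up value lay above every NC-up value, and for 6 every value lay below. Over all tested genes these shares were 16.8% and 16.4%, against 28.8% and 11.5% of the members.

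**Figure D1:**
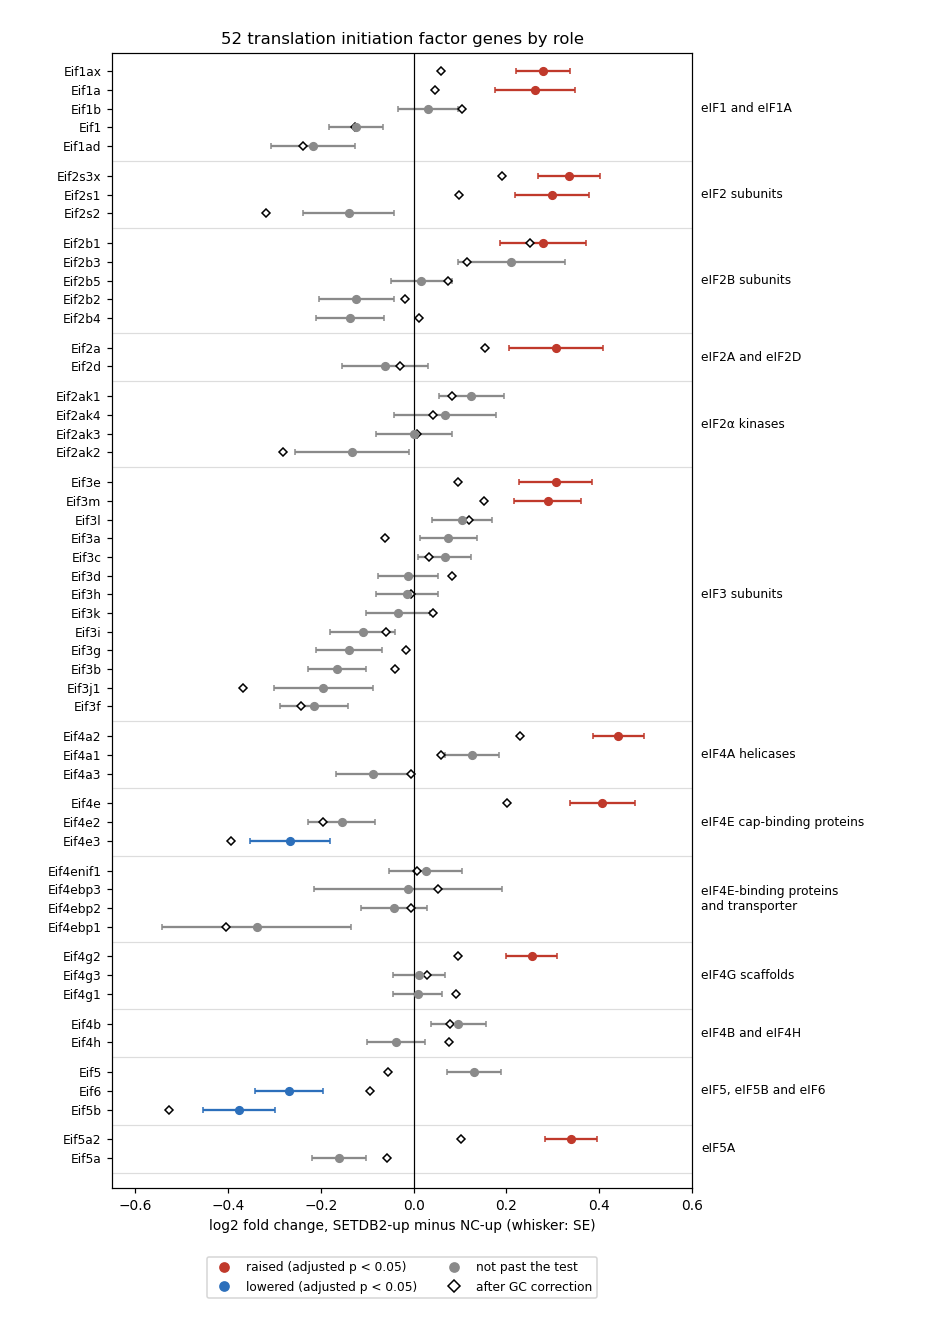
Log2 fold change (SETDB2-up minus NC-up, x axis, filled circles with SE whiskers) of the 52 initiation factor genes grouped by role, with the value after correction for transcript GC content as open diamonds. The 12 genes in red rose, the 3 in blue fell, and the diamonds of the 12 raised genes all lie closer to 0 than their circles.

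Of the 3 eIF4A helicases, which unwind capped messenger RNA or act in the nucleus, Eif4a2 rose and the others did not pass. Eif4a2 encodes the eIF4A paralogue that is abundant in neurons (gene 13682, chromosome 16, 23107468 to 23114132, plus strand, GRCm38). It had 11313, 10813 and 11373 normalised reads in SETDB2-up libraries, against 8164, 7853 and 8669 in NC-up libraries. Every SETDB2-up library was above every NC-up library. The means were 11166 ± 307 and 8229 ± 412 (SD, n = 3 each), higher by 0.44 ± 0.06 on the log2 scale (SE, limma's adjusted p = 3.86e-05). Eif4a1, the paralogue of most dividing cells, had 3855, 3674 and 3983 in SETDB2-up libraries and 3639, 3353 and 3559 in NC-up libraries. These groups did not overlap either, but the difference did not pass (log2 difference 0.13 ± 0.06 SE, limma's adjusted p = 0.152). Eif4a3, the nuclear helicase of the exon junction complex, was at 949 ± 60.8 in SETDB2-up and 1010.0 ± 86.0 in NC-up (SD, n = 3 each; log2 difference -0.09 ± 0.08 SE, limma's adjusted p = 0.497). Per kb of exon, the ratio of Eif4a2 to Eif4a1 was 1.63, 1.63 and 1.58 in SETDB2-up libraries, against 1.24, 1.30 and 1.35 in NC-up libraries. Ratios here and below were chosen after the values had been seen and are given without a test. They were not corrected for transcript GC content, which differed widely within some pairs.

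Among the cap-binding proteins 1 rose, 1 fell and 1 did not pass. Eif4e, the cap-binding subunit itself (gene 13684, chromosome 3, 138526191 to 138559696, plus strand), rose. Its normalised reads were 1243, 1205 and 1246 in SETDB2-up libraries, against 944, 879 and 964 in NC-up libraries (log2 difference 0.41 ± 0.07 SE, limma's adjusted p = 0.000769). Eif4e3, a divergent cap-binding relative (gene 66892, chromosome 6, 99621879 to 99692873, minus strand), fell. It had 678, 737 and 660 in SETDB2-up libraries and 750.0, 901 and 852 in NC-up libraries (log2 difference -0.27 ± 0.09 SE, limma's adjusted p = 0.0388). The lowest NC-up library was only just above the highest SETDB2-up library. Eif4e2, a cap-binding protein linked to translational repression, had 1165, 1283 and 1262 in SETDB2-up libraries and 1271, 1413 and 1450 in NC-up libraries, which overlapped (log2 difference -0.16 ± 0.07 SE, limma's adjusted p = 0.153). The ratio of Eif4e to Eif4e3 per kb was 0.875 ± 0.0650 in SETDB2-up and 0.550 ± 0.0695 in NC-up libraries (SD, n = 3 each).

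None of the 4 genes for eIF4E-binding proteins and the eIF4E transporter passed the test. Eif4ebp1, the inhibitor released by mTOR signalling, was low, at 82.6, 90.5 and 91.9 in SETDB2-up libraries and 95.3, 93.9 and 156 in NC-up libraries. NC-up library 3 stood above the other 5 libraries, and the log2 difference was -0.34 ± 0.20 (SE, limma's adjusted p = 0.276). Eif4ebp2, the form known to act in neurons, had more reads per kb (203 ± 11.7 in SETDB2-up, against 44.2 ± 2.50 for Eif4ebp1) and close values in both groups, at 1171 ± 67.5 in SETDB2-up and 1206 ± 41.4 in NC-up (SD, n = 3 each; log2 difference -0.04 ± 0.07 SE, limma's adjusted p = 0.728). Eif4ebp3 and Eif4enif1 had log2 differences of -0.01 and 0.03.

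Of the 3 scaffolds, Eif4g2 rose and the others did not pass. Eif4g2 (also called DAP5) lacks the part that binds eIF4E and serves cap-independent initiation (gene 13690, chromosome 7, 111067985 to 111083030, minus strand). It had 17287, 16903 and 16957 normalised reads in SETDB2-up libraries, against 13672, 14207 and 15035 in NC-up libraries (log2 difference 0.25 ± 0.05 SE, limma's adjusted p = 0.00372). Its lowest SETDB2-up value was well above its highest NC-up value. Eif4g1, the main scaffold, averaged 9795 ± 364 in SETDB2-up and 9734 ± 248 in NC-up, and Eif4g3 averaged 6094 ± 277 and 6045 ± 198 in the same groups (SD, n = 3 each). Their log2 differences were both 0.01, with SEs of 0.05 and 0.06. The helicase cofactors Eif4b (0.10 ± 0.06 SE) and Eif4h (-0.04 ± 0.06 SE) did not pass either.

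Subunits of eIF2 moved unequally. Eif2s3x, the gamma subunit that holds GTP and the initiator transfer RNA (gene 26905, chromosome X, 94188709 to 94212651, minus strand), had 1721, 1535 and 1571 normalised reads in SETDB2-up libraries, against 1247, 1280 and 1294 in NC-up libraries. It rose by 0.33 ± 0.07 on the log2 scale (SE, limma's adjusted p = 0.00254). Eif2s1, the alpha subunit that stress kinases phosphorylate, had 774, 738 and 743 in SETDB2-up libraries and 647, 596 and 592 in NC-up libraries (log2 difference 0.30 ± 0.08 SE, limma's adjusted p = 0.0155). Both genes separated the groups without overlap. Eif2s2, the beta subunit, had 882, 947 and 687 in SETDB2-up libraries and 973, 899 and 878 in NC-up libraries. SETDB2-up library 3 was the lowest, the groups overlapped, and the difference did not pass (log2 difference -0.14 ± 0.10 SE, limma's adjusted p = 0.360). The per-kb ratio of Eif2s1 to Eif2s2 was 0.656, 0.582 and 0.808 in SETDB2-up libraries, against 0.497, 0.495 and 0.503 in NC-up libraries.

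Of the 5 subunits of eIF2B, the exchange factor whose mutations cause a white-matter disease in humans, Eif2b1 rose and the other 4 did not pass. Eif2b1 encodes the alpha subunit, which senses phosphorylated eIF2. Its normalised reads were 530.1, 541 and 594 in SETDB2-up libraries, against 477, 472 and 424 in NC-up libraries (log2 difference 0.28 ± 0.09 SE, limma's adjusted p = 0.0452). Eif2b5, the catalytic epsilon subunit, was at 1392 ± 56.8 in SETDB2-up and 1376 ± 44.3 in NC-up (SD, n = 3 each). The other 3 had log2 differences of 0.21 (Eif2b3), -0.12 (Eif2b2) and -0.14 (Eif2b4).

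The 4 kinases of the integrated stress response did not pass. Eif2ak1, the haem-regulated kinase, had the smallest p of the group, with 1390, 1416 and 1433 in SETDB2-up libraries and 1213, 1277 and 1407 in NC-up libraries (log2 difference 0.12 ± 0.07 SE, limma's adjusted p = 0.246). Eif2ak3, the kinase PERK of the endoplasmic reticulum, was at 1078 ± 44.4 in SETDB2-up and 1081 ± 124 in NC-up (SD, n = 3 each). Eif2ak4, the amino acid sensor GCN2, was the least abundant of all 52 genes per kb in NC-up libraries. Eif2ak2, the double-stranded RNA sensor PKR and an interferon-stimulated gene, had 605, 619 and 538 in SETDB2-up libraries and 837, 532 and 598 in NC-up libraries. Its highest value was that of NC-up library 1, and the groups overlapped. Eif2a, an unrelated factor that can bring the initiator transfer RNA without eIF2, rose, with 768, 726 and 619 in SETDB2-up libraries and 616, 604 and 490 in NC-up libraries (log2 difference 0.31 ± 0.10 SE, limma's adjusted p = 0.0459). The lowest SETDB2-up value was only just above the highest NC-up value. Eif2d, a factor of non-canonical initiation and recycling, did not pass, and it is overlapped on the opposite strand by Rassf5, which has at least 4 times its reads.

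**Figure D2:**
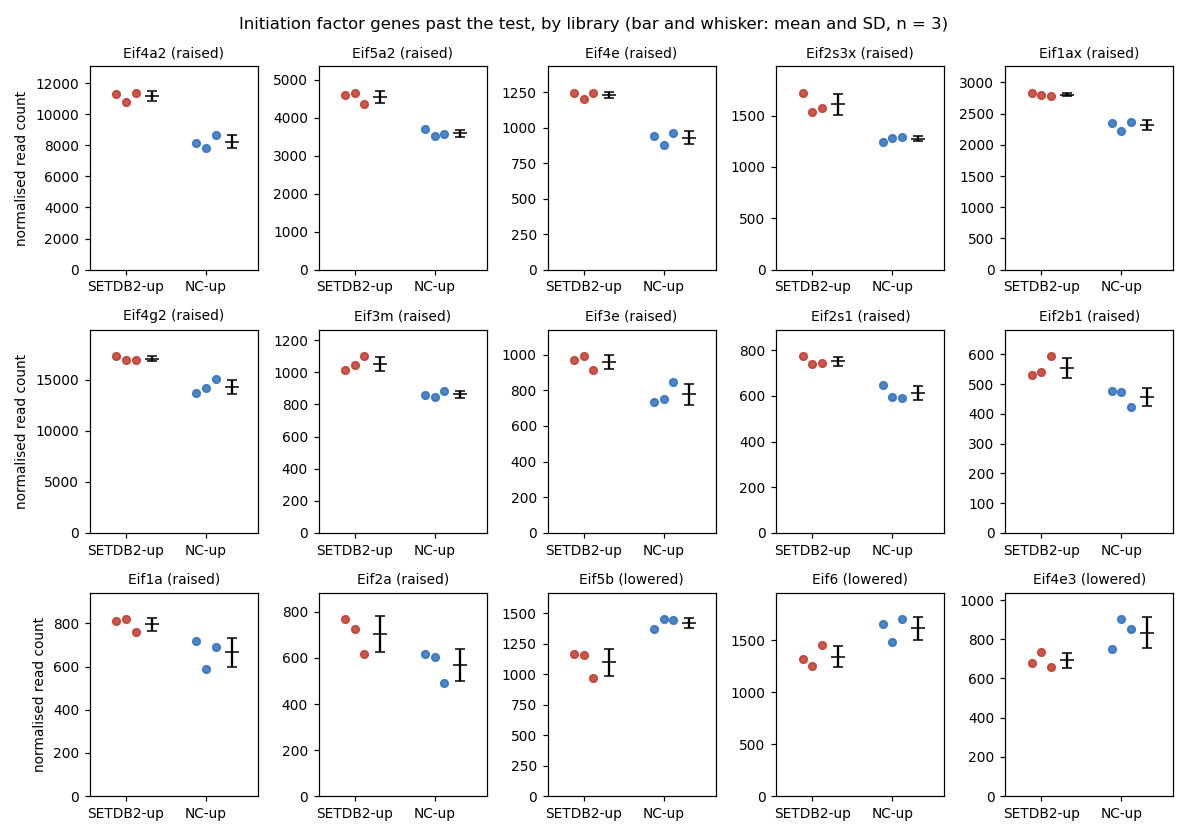
Normalised read counts (y axis, from 0) in each library for the 15 initiation factor genes past the test, SETDB2-up in red and NC-up in blue, with mean and SD in black (n = 3). In all 15 panels the 2 groups do not overlap; Eif2a and Eif4e3 show the smallest gaps.

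The large complex eIF3, which holds the small subunit to the messenger RNA, had 13 members in the table, of which 2 rose and 11 did not pass. Eif3e had 972, 992 and 914 normalised reads in SETDB2-up libraries, against 735, 749 and 846 in NC-up libraries (log2 difference 0.31 ± 0.08 SE, limma's adjusted p = 0.0124). Eif3m had 1016, 1047 and 1101 in SETDB2-up libraries, against 857, 844 and 886 in NC-up libraries (log2 difference 0.29 ± 0.07 SE, limma's adjusted p = 0.00992). Neither of these genes overlapped between groups. Eif3a, the largest subunit, had 5070.1, 4864 and 4489 in SETDB2-up libraries and 4323, 4543 and 4823 in NC-up libraries, which overlapped (log2 difference 0.07 ± 0.06 SE, limma's adjusted p = 0.440). The lowest fold changes belonged to Eif3f (-0.21 ± 0.07 SE, limma's adjusted p = 0.0534) and Eif3j1 (-0.20 ± 0.11 SE, limma's adjusted p = 0.228), which overlapped between groups. The 13 genes summed to 27984 ± 729 in SETDB2-up and 28201 ± 876 in NC-up libraries (SD, n = 3 each). The per-kb ratio of Eif3m to Eif3b, an RNA-binding core subunit, was 0.672, 0.731 and 0.668 in SETDB2-up libraries, against 0.523, 0.480 and 0.507 in NC-up libraries. Transcript GC was 44.4% for Eif3m and 55.9% for Eif3b. After GC correction their log2 differences were 0.15 and -0.04, and neither passed (limma's adjusted p = 0.275 and 0.761).

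The factors eIF1 and eIF1A open the small subunit for scanning. Of the 5 genes grouped with them by symbol, Eif1ax and Eif1a rose and the others did not pass. Eif1ax, the X-linked copy of eIF1A, had 2833, 2806 and 2778 in SETDB2-up libraries, against 2349, 2225 and 2366 in NC-up libraries (log2 difference 0.28 ± 0.06 SE, limma's adjusted p = 0.00320). Eif1a, the autosomal copy, had 809, 819 and 761 in SETDB2-up libraries and 719, 589 and 690.1 in NC-up libraries (log2 difference 0.26 ± 0.09 SE, limma's adjusted p = 0.0457). Per kb, Eif1ax stood at 542 ± 5.32 and Eif1a at 191 ± 7.42 in SETDB2-up libraries, against 447 ± 14.9 and 159.8 ± 16.4 in NC-up libraries (SD, n = 3 each). Eif1, the guardian of start codon choice, had 4361, 4529 and 4844 in SETDB2-up libraries and 5010, 4784 and 5171 in NC-up libraries, which overlapped (log2 difference -0.12 ± 0.06 SE, limma's adjusted p = 0.156). Eif1ad, placed here by its symbol alone, had 498, 502 and 591 in SETDB2-up libraries and 618, 622 and 604 in NC-up libraries. Its groups did not overlap, but the difference did not pass (log2 difference -0.22 ± 0.09 SE, limma's adjusted p = 0.108).

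Late-acting factors held the other falls. Eif5b, the GTPase that joins the large subunit (gene 226982, chromosome 1, 37998010 to 38055579, plus strand), had 1164, 1155 and 971 normalised reads in SETDB2-up libraries, against 1370, 1449 and 1441 in NC-up libraries. Its means were 1097 ± 109 and 1420 ± 43.6 in these groups (SD, n = 3 each), and the log2 difference was -0.38 ± 0.08 (SE, limma's adjusted p = 0.00275). SETDB2-up library 3 was the lowest. Eif6, which keeps the large subunit from joining too early (gene 16418, chromosome 2, 155819837 to 155826925, minus strand), had 1317, 1250.05 and 1449 in SETDB2-up libraries and 1653, 1486 and 1699 in NC-up libraries (log2 difference -0.27 ± 0.07 SE, limma's adjusted p = 0.0176). Eif5, the GTPase activator of eIF2, had 3247, 3306 and 3220 in SETDB2-up libraries and 2866, 2935 and 3130 in NC-up libraries. It did not pass (log2 difference 0.13 ± 0.06 SE, limma's adjusted p = 0.132), though its groups did not overlap. The per-kb ratio of Eif5 to Eif5b was 5.16, 5.29 and 6.13 in SETDB2-up libraries, against 3.87, 3.75 and 4.02 in NC-up libraries.

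The 2 genes for eIF5A, the only known protein with the amino acid hypusine, went opposite ways, of which 1 passed. Eif5a2 (gene 208691, chromosome 3, 28781032 to 28798846, plus strand) had 4610.3, 4655 and 4375 normalised reads in SETDB2-up libraries, against 3695, 3507 and 3584 in NC-up libraries (log2 difference 0.34 ± 0.06 SE, limma's adjusted p = 0.000499). Eif5a had 5372, 5551 and 5944 in SETDB2-up libraries, against 6414, 5928 and 6514 in NC-up libraries (log2 difference -0.16 ± 0.06 SE, limma's adjusted p = 0.0671). Its highest SETDB2-up value was just above its lowest NC-up value. Per kb, Eif5a2 stood at 0.406, 0.397 and 0.348 of Eif5a in SETDB2-up libraries, against 0.272, 0.280 and 0.260 in NC-up libraries. Their sum was 10169 ± 171 reads in SETDB2-up and 9880 ± 386 in NC-up libraries (SD, n = 3 each). Levels of different genes were compared per kb of annotated exon.

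On that scale Eif1 led in NC-up libraries, at 3773 ± 147 normalised reads per kb, followed by Eif1b (2654 ± 158), Eif5a (2644 ± 132), Eif4h (2615 ± 64.4) and Eif4a2 (2574 ± 129; SD, n = 3 each). The last 4 lay within 1 SD of their neighbours. In SETDB2-up libraries Eif4a2 (3493 ± 96.2) and Eif1 (3463 ± 185) came first and lay within 1 SD of each other. The ends of the range in NC-up libraries were Eif4ebp1 (57.7 ± 17.9) and Eif2ak4 (47.8 ± 5.32). Most eIF3 subunits sat between 890.4 (Eif3a) and 1598 (Eif3k) per kb in NC-up libraries, with Eif3m (672), Eif3e (516) and Eif3j1 (125) below them.

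**Figure D3:**
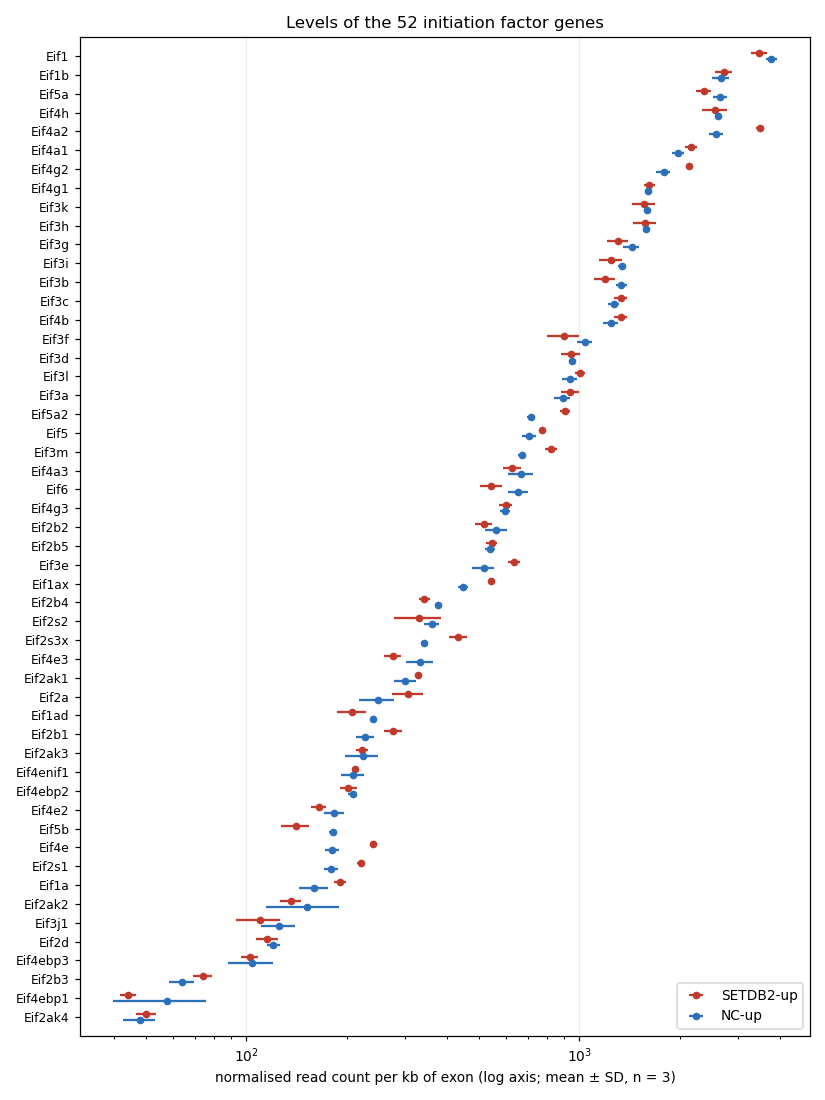
Normalised read count per kb of annotated exon (x axis, log scale, mean ± SD, n = 3) for the 52 initiation factor genes in SETDB2-up (red, upper point of each row) and NC-up (blue) libraries, ordered by the NC-up mean. By mean, Eif4a2 moves from the fifth place in NC-up to the first in SETDB2-up libraries. It lies within 1 SD of Eif4h, the next above it in NC-up, and of Eif1, the next below it in SETDB2-up.

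Most of the genes that rose had low GC content. The longest basic transcript of the 12 raised genes had 38.8% to 49.8% GC, and 11 of the 12 were under 45%. Of the 17 members under 45%, 11 rose and 1 fell, while among all 3440 tested genes under 45% GC 23.4% rose and 1.37% fell. Of the 35 members at 45% or more, 1 rose and 2 fell, against 3.65% and 10.6% of 12073 genes. Across the 52 members the log2 difference had a Pearson r of -0.55 and a Spearman rho of -0.52 with GC content, and across 15513 genes -0.41 and -0.56. These describe genes that share the same 6 libraries and are not independent. Under 45% GC, 64.7% of the members rose, beside 23.4% of all tested genes in that range, members included. The median log2 differences there were 0.28 for the members and 0.19 for all genes, and neither contrast was tested or matched for level.

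**Figure D4:**
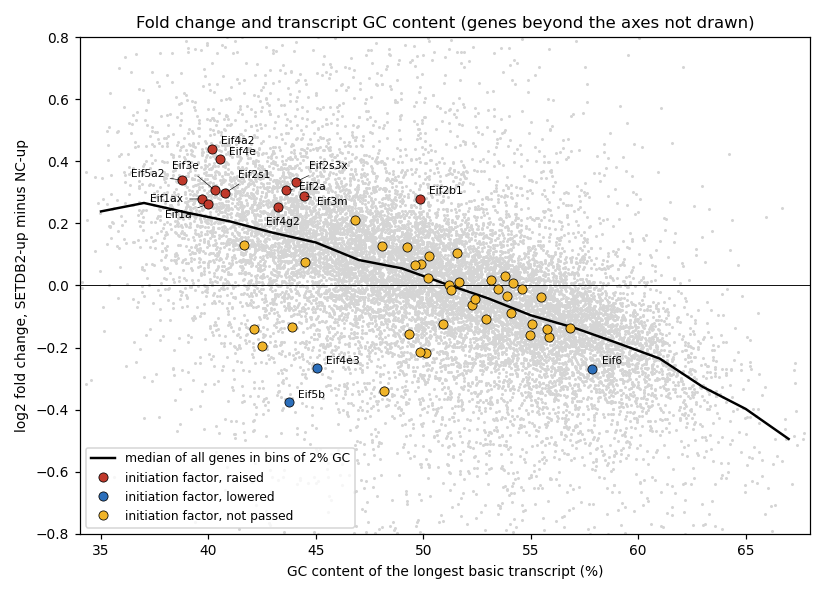
Log2 fold change (SETDB2-up minus NC-up, y axis) against transcript GC content (x axis, %) for all tested genes (grey) and the 52 initiation factor genes (coloured by call), with the median of all genes in GC bins as a black line. Most raised members lie at or above the line at its low-GC end, while Eif5b and Eif4e3 lie below it.

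After a GC trend was removed from each library, 1 member rose and 4 fell, where 1.56% of all genes rose and 3.31% fell. Eif4a2 kept its rise (log2 difference 0.23 ± 0.06 SE, limma's adjusted p = 0.0273). Eif5b (-0.53 ± 0.07 SE, limma's adjusted p = 0.000111) and Eif4e3 (-0.39 ± 0.08 SE, limma's adjusted p = 0.00980) kept their falls, with larger values. Eif2s2 (-0.32 ± 0.08 SE, limma's adjusted p = 0.0346) and Eif3j1 (-0.37 ± 0.10 SE, limma's adjusted p = 0.0372), both of low GC content, passed in this fit and not without the correction. The other 11 raised genes all stayed above 0, between 0.05 and 0.25, and none passed. Eif6, at 57.9% GC, moved to -0.09 (limma's adjusted p = 0.505). Whether the GC trend comes from the libraries or from the ganglia cannot be told apart in this design, so the calls of these 11 genes and of Eif6 depend on how the trend is treated. For Eif2b1, at 49.8% GC, the log2 difference itself moved little, from 0.28 to 0.25. Its unadjusted p by limma went from 0.00699 to 0.0123 and its adjusted p to 0.127, while the number of all genes changed went from 2690 to 755.

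SETDB2-up libraries 1 and 2 held most of the liver transcripts. With both left out, Eif4a2, Eif4e and Eif5a2 rose and Eif5b fell, where 0.891% of all genes rose and 1.84% fell. That fit leaves 1 SETDB2-up library, which is assumed to vary like the NC-up libraries. Single libraries also decided calls: without NC-up library 2 or SETDB2-up library 1, 7 members rose (4.55% and 2.53% of all genes did), and without SETDB2-up library 3, 7 fell (11.0% of all genes), the 5 added falls being Eif1, Eif1ad, Eif3b, Eif3f and Eif5a. When NC-up library 3 or SETDB2-up library 1 was left out, 1 member fell, Eif5b (6.67% and 4.08% of all genes). The calls for Eif4a2 and Eif5b held in all 17 alternatives, those for Eif4e in 16 and for Eif5a2 and Eif2s3x in 15, while those for Eif1a and Eif2a were lost in 10 and 9.

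Genes of the translation machinery often begin with a run of pyrimidines at the start site, a feature through which mTOR and Larp1 are known to set the translation of such messages. RefSeq start sites (GRCm38.p6) were found for 42 of the 52 genes. A run of at least 8 C or T touching the 5 bases on either side of a start site was present in 7 of the 42, or 16.7%. In the whole RefSeq table it was present in 2962 of the 27025 genes, or 11.0%. The member count is small, and the difference between these shares was not tested. It was present for 2 of 9 matched raised genes, 0 of 1 lowered and 5 of 32 others. The 30 bases around the start are shown for the 3 longest runs, with the run in capitals. That of Eif2b5 begins before the bases shown.
Eif2b5, chr16:20498802-20498831, plus strand: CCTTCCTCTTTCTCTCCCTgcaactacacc
Eif2s3x, chrX:94212637-94212666, minus strand: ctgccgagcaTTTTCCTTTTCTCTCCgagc
Eif3f, chr7:108934400-108934429, plus strand: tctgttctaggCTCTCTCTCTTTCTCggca
Of these 3 genes Eif2s3x rose, while Eif2b5 (log2 difference 0.02 ± 0.07 SE) and Eif3f (-0.21 ± 0.07 SE) did not pass. A match in these letters is a description and not a measured start.

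Of 40 other genes of cap-dependent initiation and its control, 11 rose (27.5%) and 2 fell (5%), against 7.71% and 8.71% of all genes. Their median log2 difference was 0.03. The list had a median level of 1474 normalised reads, against 420 for all tested genes. Most of the 11 raised genes were under 45% GC, a range in which 23.4% of all tested genes rose. The shares were matched for neither level nor GC content. Paip1, which links the poly(A)-binding protein to eIF3 and eIF4A, fell to 1106 ± 41.2 in SETDB2-up, against 1524 ± 66.0 in NC-up (SD, n = 3 each; log2 difference -0.46 ± 0.07 SE, limma's adjusted p = 0.000198). Ddx3x, an RNA helicase of scanning, rose by 0.34 ± 0.05, and Abce1, which recycles ribosomes, by 0.42 ± 0.08 (log2 scale, SE). Mcts1, a reinitiation factor, rose by 0.46 ± 0.11 (SE, limma's adjusted p = 0.00734). The other fall was Mknk2, a kinase that acts on eIF4E, named outside the rule. It was at 1468 ± 104 in SETDB2-up and 1821 ± 148 in NC-up (SD, n = 3 each; log2 difference -0.31 ± 0.07 SE, limma's adjusted p = 0.00765). After GC correction its log2 difference was -0.07 (limma's adjusted p = 0.608). Its relative Mknk1 did not pass (-0.10 ± 0.08 SE, limma's adjusted p = 0.417). After GC correction Paip1 alone of the 40 passed (-0.68), and 0 rose by limma, while 7 were higher at an unadjusted p under 0.05; without the correction edgeR and DESeq2 also called 11 raised. The 11 became 4 without NC-up library 2 or SETDB2-up library 1 (4.55% and 2.53% of all genes rose). They became 6 without NC-up library 1 or SETDB2-up library 2 (5.94% and 4.0% of all genes).

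Downstream of initiation, 3 of 30 elongation and termination genes rose by limma (10%, against 7.71% of all genes), a share near the background. By edgeR 2 rose and by DESeq2 3. None of the 30 fell by limma, edgeR or DESeq2, though 2 fell without SETDB2-up library 3. No member of that list was lower at an unadjusted p under 0.05 either. The elongation factor Eef1a1 had 36467 ± 1377 normalised reads in SETDB2-up and 30249 ± 1125 in NC-up (SD, n = 3 each; log2 difference 0.27 ± 0.06 SE, limma's adjusted p = 0.00308). Ltn1, a ligase for stalled ribosomes, rose by 0.36 ± 0.06, and the mitochondrial factor Gfm1 by 0.21 ± 0.07 (log2 scale, SE). The call for Gfm1 (limma's adjusted p = 0.0499) was lost in 12 of 17 alternatives. After GC correction none of the 3 passed, with limma's adjusted p at 0.0745 for Ltn1, 0.0564 for Eef1a1 and 0.421 for Gfm1. With a replicate block and the GC correction together, 4 of the 30 rose, where 4.78% of all genes did. Eef1a1 was among them (limma's adjusted p = 6.46e-05). Of 28 measured targets of the integrated stress response, 1 rose (3.57%) and 3 fell (10.7%), against 7.71% and 8.71% of all genes, so the falls were near the background. Ddit4, an inhibitor of mTOR (-0.70 ± 0.08 SE), the transcription factor Cebpb (-1.03 ± 0.16 SE) and the amino acid transporter subunit Slc7a5 (-0.25 ± 0.08 SE) fell on the log2 scale, the groups of Slc7a5 overlapping, and the lipoprotein receptor Vldlr rose (0.41 ± 0.07 SE). The call for Slc7a5 was lost in 8 of 17 alternatives, among them the GC correction (log2 difference -0.12, limma's adjusted p = 0.474). Atf4, the central factor of that response, was at 2376 ± 155 in SETDB2-up and 2291 ± 34.8 in NC-up (SD, n = 3 each; log2 difference 0.05 ± 0.06 SE, limma's adjusted p = 0.633), and is named outside the rule because the list is built around it.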

How the data were processed

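The authors deposited 1 table of mouse trigeminal ganglion genes with a normalised signal per library. Per the labels, RNA was polyadenylated and libraries strand-specific, and HISAT2, FastQC and GRCm38 were used per the submitters' processing notes. The sources used here do not give tool versions, the read counter, its strand setting or its filters. The signal is read counts divided by 1 factor per library: undoing it gave whole reads for 100% of values (within 0.001). The least covered members, Eif4ebp3 and Eif4ebp1, had as few as 68 and 87 reads in a library, so counting error adds to their spread. Reads carry no molecular identifiers.

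Values were tested as log2(value + 1) by limma (3.58.1, R 4.3.3) with a mean-variance trend, over the 16387 genes that reached 1 in 3 or more libraries, with Benjamini-Hochberg adjustment over all of them and a threshold of 0.05. The design named edgeR only for raw counts, and edgeR (4.0.16) and DESeq2 (1.42.0) on recovered reads were alternatives. Fold changes are on the log2(value + 1) scale. Both limma and edgeR were tested on simulated data with known changes. Large changes were recovered, while changes as small as most of those reported here were recovered in a minority of genes, so a gene that did not pass may still differ. The simulation changed fewer genes than were called here and gave every gene the same dispersion. Its recovery shares therefore need not hold for the members. GC content came from the longest basic transcript of GENCODE M21, which matched 94.7% of genes and all 52 members, and the correction removed a loess trend (span 0.5) from each library. Exon length is the union of basic exons. Within each group no pair of libraries matched within sampling noise, chi-square being 3.86 to 9.60 times its degrees of freedom.

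The members and lists were chosen with earlier results of these data known. Named by rule were every member past the threshold, the most abundant member and that with the smallest p in each role, and up to 4 genes of each other list. Members named beyond it, and the ratios, were chosen after their values were seen. Sets of 41, 30 and 30 partner genes were listed, of which 40, 30 and 28 were in the table.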

Additional observations from a re-analysis of the deposited data

How the results depend on the processing

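Over 17 alternatives no named gene that was called in either setting changed sign. The count of initiation factor genes raised was 12. It was 1 with a GC correction, 3 with the GC correction and the replicate block together, 3 without both SETDB2-up libraries 1 and 2, and 7 to 12 when single libraries were left out. The count lowered was 3. It was 5 in DESeq2, 4 with the GC correction, 6 with the replicate block, 8 with the block and the GC correction, 1 without both liver-bearing libraries and 1 to 7 when single libraries were left out. The falls added by the block were Eif3b, Eif3f and Eif5a, where 11.7% of all genes fell and 3618 genes changed in either direction. The number of all genes changed was 2690, against 755 with the GC correction, 1726 with the block and the GC correction, 447 without both liver-bearing libraries and 1082 to 3335 without single ones. Other cap-dependent initiation genes raised numbered 11, against 0 (GC correction), 2 (block and GC correction), 1 (without both libraries) and 4 to 10 (single libraries out). Those lowered numbered 2, against 1 (GC correction), 4 (replicate block) and 1 (without both libraries). Elongation and termination genes raised numbered 3, against 0 (GC correction) and 4 (block and GC correction), and fewer rose without both libraries. Those lowered numbered 0, against 1 (replicate block) and 0 to 2 (single libraries out). Stress response targets raised numbered 1, against 2 (GC correction), 2 (block and GC correction), 2 (replicate block) and 0 (without both libraries). Those lowered numbered 3, against 2 with the GC correction with or without the block, with no filter, without both libraries and in 4 of the 6 fits that leave out 1 library. The cause of these differences was not tested. The other pseudocount, filters, edgeR fits and TMM scaling kept counts of members within 1.5 times. Libraries of the same number had correlated deviations of 0.0711 to 0.0883, and those of different numbers -0.0576 to -0.0279. The same-number values were under 0.1, a cut-off for pairing that the planned design did not name. Each library correlated best with its own number, which is a hint from the data and not from the design.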
